A study of Mus musculus with 3 samples.

Results

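The genes described here are 10 genes of secreted chemokines and cytokines and their signalling, *Cxcl1*, *Cxcl5*, *Cxcl12*, *Ccl2*, *Ccl7*, *Il6*, *Lif*, *Csf1*, *Tslp* and *Il1rl1*, among the 15554 rows (15513 gene symbols) of a table of gene expression in NIH3T3 fibroblasts. They were chosen by symbol from a list drawn up with earlier results of these libraries known, and all 10 symbols are in the table with 1 row each. Their FPKM, which are fragment numbers scaled for transcript length and depth, are therefore given as a description. Of the 10, 9 encode secreted proteins. *Il1rl1* encodes ST2, the receptor of the cytokine IL-33, which exists in a membrane form and a soluble form, and the table gives 1 value for the gene without separating the forms.

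NIH3T3 cells are a permanent fibroblast line from mouse embryos. After 24 h in serum-free medium they were given fresh serum-free medium for a further 24 h, either without stimulation (CTRL), with GDF15 protein at 100 ng/mL or with TGF-β protein at 4 ng/mL. For each treatment 3 RNA preparations were pooled and 1 stranded library was sequenced, so that there are 3 libraries, no replicate error and no test between treatments. All values are from 1 cell line in culture, and a lower value in such a bulk library cannot tell fewer expressing cells from less RNA per cell.

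Chemokines are small secreted proteins that attract leucocytes through receptors of the G protein-coupled family. *Cxcl1* and *Cxcl5* act on neutrophils, *Ccl2* and *Ccl7* on monocytes, and *Cxcl12* on cells that carry CXCR4. Fibroblasts are a known source of all of these, and of IL-6 and LIF, which signal through the shared receptor subunit gp130, of CSF1, the growth factor of macrophages, and of TSLP, an activator of dendritic cells. Transcription of many of these genes is driven by NF-κB, and their mRNAs are often short-lived because of AU-rich elements in the 3′ UTR.

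The fibroblast label was checked against markers. Of 10 fibroblast markers, 9 reached a mean FPKM of 1, and *Fap* did not (mean 0.0351). Their FPKM summed to 12385, 12784 and 11804 in the CTRL, GDF15 and TGF-β libraries. Of 14 listed leucocyte symbols, 13 are in the table (*Emr1* and *Adgre1* are names of the same gene), and 5 were at 0 in all libraries, including *Emr1* and *Tyrobp*, and the summed level was between 7.83 and 9.55, most of it from *Cd14*. The 5 endothelial markers summed to between 0.252 and 0.329 and the 5 epithelial markers to between 0.268 and 0.735. The depth of the libraries is not given in the sources used here. The spacing of low FPKM values of genes with 1 coding transcript gave estimated depths, in 1e6 fragments, of 18.7 (CTRL), 21.8 (GDF15) and 17.8 (TGF-β), at which 65.7%, 72.1% and 71.4% of the low values lay within 0.1 of a whole fragment. The depths were set on low values of the same genes, so that these shares are no independent check. Fragment numbers below are estimates from these depths, and the 95% intervals made from them cover counting error only.

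Promoter sequence is shown for the 3 genes whose window holds letters that match the NF-κB consensus, the motif bound by the factor named above. RefSeq windows (GRCm38.p6, 250 bases before to 50 after the start of the gene) were matched to 6 of the 10 genes, *Cxcl1*, *Cxcl12*, *Il6*, *Lif*, *Csf1* and *Il1rl1*, with 7 windows because *Il1rl1* has a pair of starts. The 250 bases before the start are printed 5′ to 3′ on the strand of the gene, and capitals mark the NF-κB letters. The windows are chr5:90890995-90891244 (plus strand) for *Cxcl1*, chr5:30012864-30013113 (plus strand) for *Il6* and chr3:107760470-107760719 (minus strand) for *Csf1*.
Cxcl1: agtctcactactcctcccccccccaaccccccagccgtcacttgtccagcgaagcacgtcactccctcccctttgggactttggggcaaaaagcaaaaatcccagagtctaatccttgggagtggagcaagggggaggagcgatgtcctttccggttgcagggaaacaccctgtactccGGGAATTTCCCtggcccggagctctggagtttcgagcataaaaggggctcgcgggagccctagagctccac
Il6: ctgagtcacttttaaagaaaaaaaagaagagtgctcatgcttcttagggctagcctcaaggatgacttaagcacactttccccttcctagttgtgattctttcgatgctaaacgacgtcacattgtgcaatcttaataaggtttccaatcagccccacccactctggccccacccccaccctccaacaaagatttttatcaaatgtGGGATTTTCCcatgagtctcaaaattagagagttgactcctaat
Csf1: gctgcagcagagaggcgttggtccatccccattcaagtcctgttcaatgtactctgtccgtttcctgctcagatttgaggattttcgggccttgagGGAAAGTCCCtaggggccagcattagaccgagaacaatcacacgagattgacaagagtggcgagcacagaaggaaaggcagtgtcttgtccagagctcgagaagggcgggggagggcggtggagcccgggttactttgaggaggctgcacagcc

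Counted from the start, the NF-κB letters lay at -71 to -61 in *Cxcl1*, as a pair of overlapping matches, at -44 to -35 in *Il6* and at -154 to -145 in *Csf1*. Among all 32851 promoter windows, 4.51% held such letters on either strand, and 3 of the 7 windows here did. The AP-1 letters TGANTCA were found in *Il6* and *Lif* (7.81% of all windows), and the C/EBP letters TTGCNNAA in *Il6* and in the first window of *Il1rl1* (10.8% of all windows). TATAAA was in 0 of the 7 windows and in 13.6% of all windows. *Il6* was the gene whose window held 3 of the 4 motifs, and it was the lowest of the 10 genes in each library. A match to such letters is a description of the sequence, and binding was not measured.

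The 3′ UTRs of the same genes were read from GENCODE M21 (GRCm38). The windows of 30 bases below hold the densest run of the AU-rich pentamer ATTTA, in capitals, in 3 genes with many copies, and the single copy of *Ccl2*, the most abundant gene of the 10. They lie at chr5:90892606-90892635 for *Cxcl1*, chr5:30019684-30019713 for *Il6*, chr11:4272414-4272443 for *Lif* and chr11:82037205-82037234 for *Ccl2*, all on the plus strand.
Cxcl1: gtcctATTTATTTAtgtATTTATTTAttcc
Il6: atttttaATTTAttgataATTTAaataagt
Lif: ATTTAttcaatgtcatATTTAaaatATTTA
Ccl2: taatattaaacttATTTAacttattgatgt

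*Cxcl1* had 7 pentamers in a 3′ UTR of 592 bases, which is 11.8 per kb. *Il6* had 6 in 427 bases, or 14.1 per kb. *Lif* also had 7, but in 3180 bases, or 2.20 per kb. Over the 15199 genes of the table with a 3′ UTR, the median was 1 pentamer and 1.14 per kb, and 64.5% had at least 1. The density of *Il6* was above that of 99.6% of these genes and the density of *Cxcl1* above that of 99.2%. *Cxcl1* and *Lif* each held 2 pentamers with TT on each side, a longer form that 6.99% of the genes had. At the other end, *Il1rl1* (0.924 per kb) and *Cxcl12* (0.771 per kb) were below the median density.

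**Figure D1:**
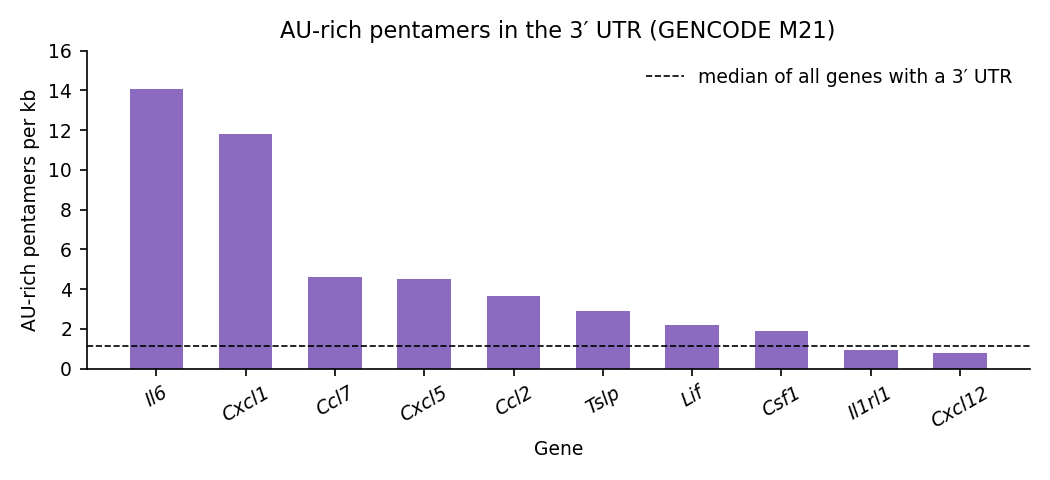
Number of AU-rich pentamers per kb of 3′ UTR (vertical axis) for the 10 genes, from GENCODE M21, with the median over 15199 genes as a dashed line. *Il6* (14.1 per kb) and *Cxcl1* (11.8 per kb) stand above the other genes, which run from 0.771 to 4.60 per kb.

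The 10 genes spanned a wide range of levels. In CTRL the order by FPKM was *Ccl2*, *Il1rl1*, *Ccl7*, *Csf1*, *Tslp*, *Cxcl1*, *Cxcl12*, *Lif*, *Cxcl5* and *Il6*, from 123 to 0.0604. The first 4 were above 48 and within the highest 7.49% of all rows. In GDF15 the 4 most abundant genes kept their order, and *Cxcl1* moved from the 6th to the 8th place, behind *Cxcl12* and *Lif*. In TGF-β *Ccl7* stood before *Il1rl1*. In CTRL the steps between *Il1rl1* and *Ccl7* and between *Cxcl1* and *Cxcl12* were 0.20 and 0.18 on the log2(FPKM + 1) scale. Without replicates, the error of such a step is not known. The local spread used below is a scaled median absolute deviation, taken over the changes between libraries of the 500 other genes nearest in mean expression. It describes the changes of similar genes and is not a replicate error, which these data do not have.

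**Figure D2:**
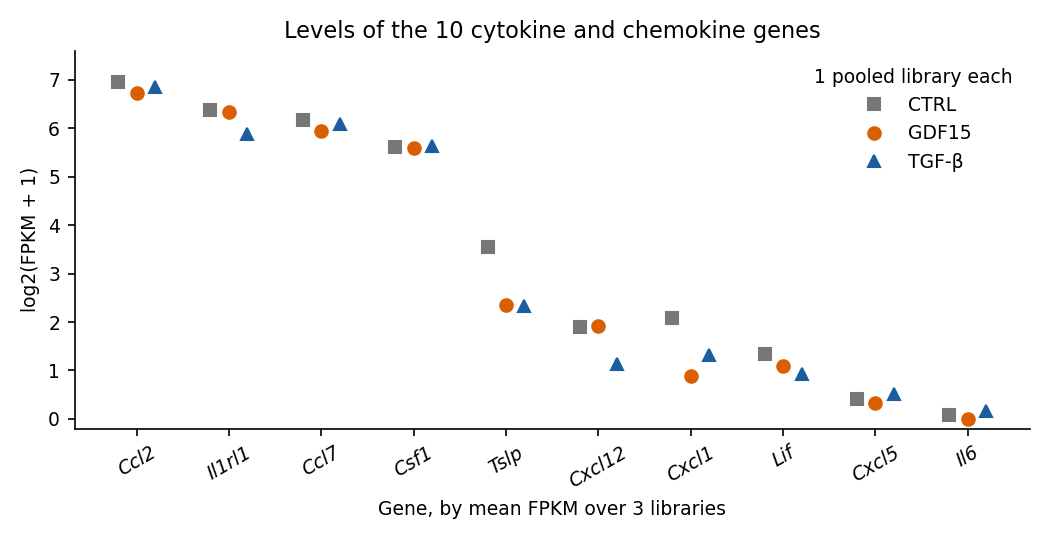
Level of each of the 10 genes as log2(FPKM + 1) (vertical axis) in the CTRL, GDF15 and TGF-β libraries, with 1 pooled library per point and genes ordered by mean FPKM. *Tslp* and *Cxcl1* are lower in both stimulated libraries than in CTRL, *Cxcl12* is lower in TGF-β alone, and *Ccl2*, *Ccl7* and *Csf1* lie close together.

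The change of a gene is the difference of its log2(FPKM + 1) between libraries, and a gene was called up- or down-regulated when this was over 1 in size, the 2-fold criterion of the study. By GDF15, 2 of the 10 genes were down-regulated, *Cxcl1* and *Tslp*, and 0 were up-regulated. Over all 15554 rows, 45 passed the criterion (0.289%) and 12 of them were lower (0.0772%). By TGF-β, 1 of the 10 was down-regulated, *Tslp*, against 142 rows in all (0.913%), of which 52 were lower (0.334%). Between TGF-β and GDF15 directly, 0 of the 10 and 16 rows in all (0.103%) passed. Because the genes were picked with these values in view, nothing is read from the shares. The median change of the 10 genes was -0.16 (GDF15) and -0.26 (TGF-β), and over the 9226 rows with a mean FPKM of at least 1 it was -0.03 and -0.07. Both comparisons with CTRL use the same CTRL library. Where 3 FPKM values follow a gene without names of libraries, they are in the order CTRL, GDF15, TGF-β.

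*Cxcl1* lies on chr5:90891241-90893115 (plus strand). The CTRL library gave an FPKM of 3.22, the GDF15 library 0.860 and the TGF-β library 1.502. CTRL was the highest and GDF15 the lowest. *Cxcl1* was down-regulated by GDF15, with a change of -1.18, which is -5.32 local spreads from the median of genes of similar expression. The change by TGF-β, -0.76, did not reach the criterion and was -2.62 local spreads away. These levels rest on an estimated 45, 14 and 20 fragments. The ratio of GDF15 to CTRL was 0.267 with a counting interval of 0.135 to 0.495, and that of TGF-β to CTRL was 0.466 (0.260 to 0.805). Both intervals lie below 1. The ratio of TGF-β to GDF15 was 1.75 with an interval of 0.838 to 3.73, which includes 1, so that counting error at this depth allows either order of the stimulated libraries. The change between them was 0.43, or 2.68 local spreads from the local median.

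*Cxcl5*, which lies in the same chromosome 5 cluster as *Cxcl1*, at chr5:90759360-90761624 and 129.6 kb from it, had an FPKM of 0.331 (CTRL), 0.252 (GDF15) and 0.424 (TGF-β). An estimated 8, 8 and 10 fragments stand behind these values, and no direction can be given. The ratio to CTRL was 0.763 for GDF15 and 1.28 for TGF-β, with intervals of 0.281 to 2.62 and 0.465 to 3.82. The receptor of both chemokines, *Cxcr2*, was at an FPKM of at most 0.0161.

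*Ccl2* and *Ccl7* lie 8.258 kb apart on chromosome 11, at 82035571 to 82037453 and 82045712 to 82047525. *Ccl2* stood at an FPKM of 123 in the CTRL library, 105 in the GDF15 library and 114 in the TGF-β library. *Ccl7* had 71.4, 60.2 and 67.3 in the same order. For both genes the level as deposited was highest in CTRL and lowest in GDF15. Neither passed the criterion, with changes by GDF15 of -0.22 and -0.24 and by TGF-β of -0.11 and -0.08. The ratio of *Ccl2* to *Ccl7* stayed between 1.69 and 1.75. Counting error was small here, since *Ccl2* had an estimated 1241 to 1408 fragments per library and *Ccl7* 721 to 801. For GDF15 the counting intervals of the ratio to CTRL, 0.794 to 0.922 and 0.764 to 0.932, lie below 1. Their transcripts are short (813 and 801 bases), and the 500 rows nearest in transcript length had median changes by GDF15 of -0.28 and -0.29. With the trend of length and GC content subtracted, the changes by GDF15 were -0.08 and -0.10, and with the length trend alone subtracted they were 0.06 and 0.04. The difference between TGF-β and GDF15 was 0.11 for *Ccl2* and 0.16 for *Ccl7*. For *Ccl2* it turned to -0.01 with the trend of length and GC content subtracted and to -0.04 with the length trend alone, and for *Ccl7* it was 0.04 and 0.0097.

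These 2 genes made up most of the chemokine transcripts. The table holds 36 chemokine symbols in 44 rows, of which 23 rows were at 0 in all libraries and 9 reached a mean FPKM of 1. *Ccl2* and *Ccl7* together were 90.2% of the summed chemokine FPKM of the CTRL library, 90.8% for GDF15 and 91.1% for TGF-β. The next was *Ccl8*, another monocyte chemokine of the chromosome 11 cluster, with an FPKM of 5.04, 3.43 and 4.01. *Ccr2*, a receptor gene of *Ccl2* and *Ccl7*, was listed at 0 in all 3 libraries. The receptor gene *Ccr1* had an FPKM of 0.752, 0.488 and 0.405.

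*Cxcl12* lies on chr6:117168535-117181367 (plus strand). Its FPKM was 2.72 (CTRL), 2.80 (GDF15) and 1.21 (TGF-β). CTRL and GDF15 were alike and TGF-β was the lowest. It changed by 0.03 with GDF15, by -0.75 with TGF-β and by -0.78 between TGF-β and GDF15, the last at -4.14 local spreads, and none passed the criterion. For the longest coding transcript (5627 bases) the values correspond to an estimated 275, 330 and 117 fragments, and the ratio of TGF-β to CTRL was 0.445 (0.356 to 0.555). The gene has 3 coding transcripts, and the shortest would give 85.1, 102 and 36.1 fragments. The chemokine receptor *Cxcr4* was at an FPKM of at most 0.0332. *Cxcr7*, which encodes the scavenging receptor of CXCL12, was at 30.7 (CTRL), 36.5 (GDF15) and 42.6 (TGF-β). Its changes of 0.24 and 0.46 did not pass the criterion.

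*Tslp* had an FPKM of 10.7 without stimulation, 4.08 after GDF15 and 4.02 after TGF-β. Both stimulated libraries were lower than CTRL and nearly the same. *Tslp* fell by 1.199 by GDF15 and by 1.21 by TGF-β, and these changes lay -5.73 and -5.48 local spreads from the local median. The estimated fragments were 184, 82 and 66, and the ratios to CTRL were 0.383 (0.291 to 0.498) and 0.378 (0.279 to 0.5003). The ratio of TGF-β to GDF15 was 0.987, with an interval that spans 1 and ends at 1.38. Of the 10 genes, *Tslp* alone passed the criterion in both comparisons with CTRL. Of the receptor chains of TSLP, *Crlf2* had an FPKM of 20.5, 18.3 and 19.1, and *Il7r* was at most 0.0609.

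The calls of *Cxcl1* and *Tslp* by GDF15 depend on how transcript length is treated. The transcripts have 953 and 1126 bases, and the rows nearest to them in length had median changes by GDF15 of -0.26 and -0.22. After subtraction of the trend with length alone, *Cxcl1* was at -0.94 and *Tslp* at -0.997, so that 0 of the 10 genes passed. With a trend of both length and GC content subtracted they were at -1.05 and -1.18, and both passed. For TGF-β, *Tslp* passed under both corrections.

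**Figure D3:**
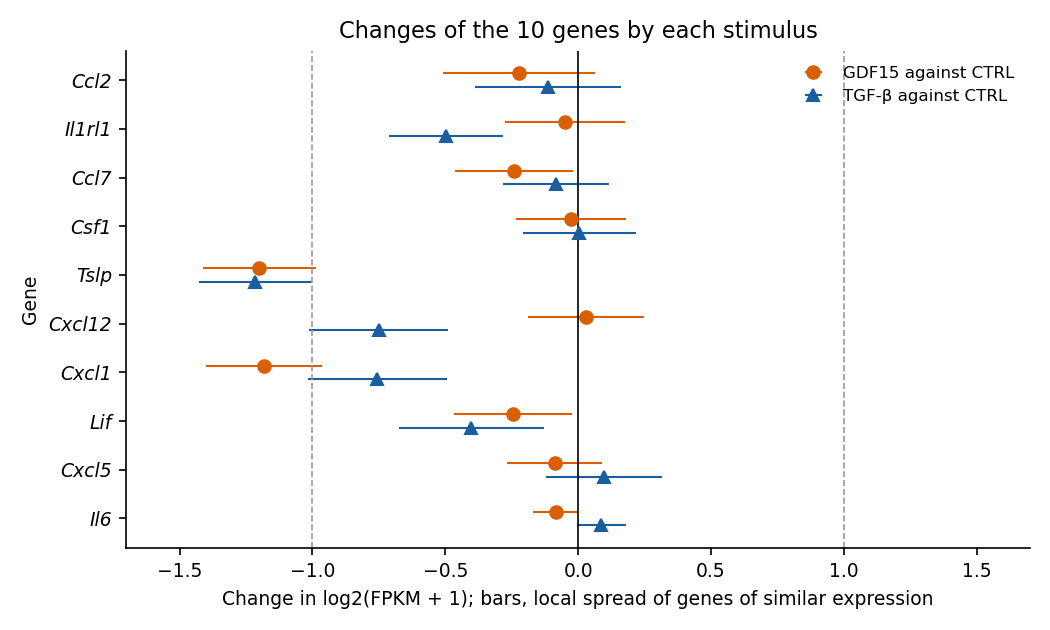
Change in log2(FPKM + 1) against CTRL (horizontal axis) of each gene by GDF15 and TGF-β, with bars of 1 local spread of genes of similar expression and dashed lines at the 2-fold criterion. *Cxcl1* by GDF15 (-1.18) and *Tslp* by both stimuli (-1.199 and -1.21) lie beyond the line, and *Cxcl1* and *Cxcl12* by TGF-β (-0.76 and -0.75) are the nearest within it.

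**Figure D4:**
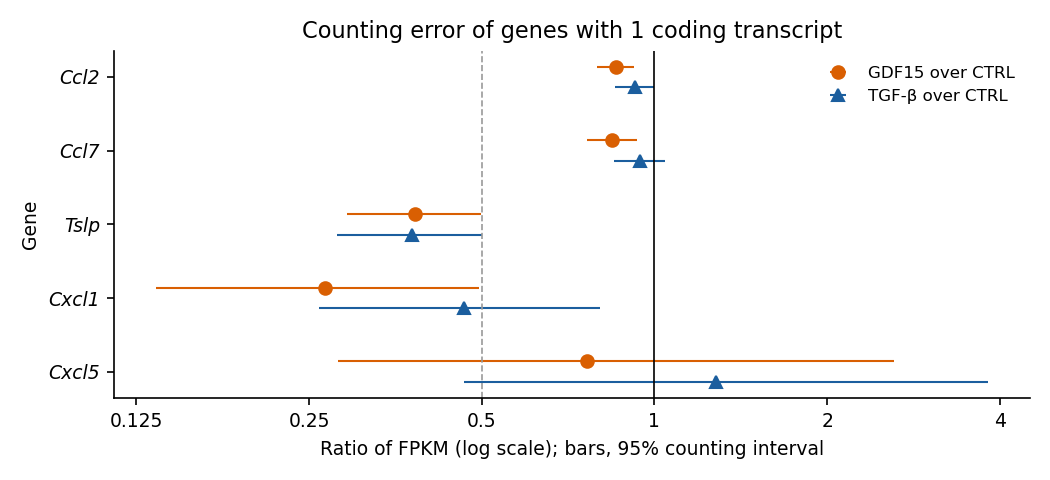
Ratio of FPKM to CTRL on a log scale (horizontal axis) for the 5 genes with 1 coding transcript, with 95% counting intervals from estimated fragment numbers and a dashed line at a ratio of 0.5. The intervals of *Cxcl1* and *Tslp* lie below 1 for both stimuli, and those of *Cxcl5* run from 0.281 to 2.62 and from 0.465 to 3.82.

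*Il6* was at the floor of the assay. Its FPKM was 0.0604 (CTRL), 0 (GDF15) and 0.127 (TGF-β), an estimated 1, 0 and 2 fragments. All are at or below 3 fragments, and no fold is given. The subunits of its receptor were expressed. *Il6st*, which encodes gp130, had an FPKM of 74.5, 93.6 and 77.8, and *Il6ra* had 17.6, 13.8 and 12.8.

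*Lif*, a cytokine of the same family, lies on chr11:4257557-4272514. The libraries gave an FPKM of 1.52 (CTRL), 1.12 (GDF15) and 0.904 (TGF-β). CTRL was the highest and TGF-β the lowest, but the changes of -0.25 and -0.40 did not pass the criterion. The change by TGF-β was -1.33 local spreads from the local median, and that by GDF15 was smaller. With an estimated 108, 93 and 62 fragments, the ratios to CTRL were 0.740 (0.554 to 0.984) and 0.596 (0.433 to 0.829). *Lifr*, which encodes its specific receptor chain, had an FPKM of 0.921, 0.856 and 0.454.

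*Csf1* (chr3:107741048-107760469, minus strand) had nearly the same level in all 3 libraries. Its FPKM was 48.2 (CTRL), 47.3 (GDF15) and 48.4 (TGF-β), with changes of -0.03 and 0.01. The counting intervals of the ratio to CTRL ran from 0.938 to 1.03 and from 0.957 to 1.05, based on the longest of 6 coding transcripts. *Csf1r*, the receptor gene and a marker of macrophages, was at 0 in CTRL and TGF-β and at 0.0250 in GDF15.

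*Il1rl1* lies on chr1:40429570-40465415, 0.136 kb from *Il18r1*. Its FPKM was 82.5 without stimulation, 79.6 after GDF15 and 58.1 after TGF-β. CTRL and GDF15 were close and TGF-β was the lowest. It changed by -0.05 with GDF15, by -0.50 with TGF-β and by -0.45 between TGF-β and GDF15, and none passed the criterion. The change by TGF-β was -2.00 local spreads from the local median and the difference between the stimulated libraries -3.10. The gene has 5 coding transcripts of 375 to 5302 bases, so that the number of fragments is uncertain. *Il33*, which encodes the ligand of ST2, had an FPKM of 5.27, 3.01 and 1.26. *Il33* was down-regulated by TGF-β (-1.47) and did not pass the criterion by GDF15 (-0.65). The coreceptor gene *Il1rap* had an FPKM of 35.7, 37.6 and 28.6, and *Il1r1*, a receptor gene of the same cluster, 13.0, 11.6 and 9.27. *Il18rap*, also of this cluster and named after its values were seen, had 0.867, 0.644 and 1.06.

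Around these genes, 7 lists of pathway genes with 178 rows in all were followed. By GDF15, 1 of the 178 rows passed the criterion, against 0.289% of all rows, and it was *Cxcl1*, which had been chosen with its value known. By TGF-β 4 passed, all lower and each in another list, against 0.913% of all rows in either direction and 0.334% lower. In the direct comparison 0 passed, against 0.103% of all rows.

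Among 19 receptors and partners of the 10 genes in the table, 7 reached a mean FPKM of 1. *Il33* was the 1 gene over 2-fold, by TGF-β, and the median change of the 7 was -0.16 (GDF15) and -0.10 (TGF-β). The most abundant by mean FPKM were *Il6st*, the syndecan gene *Sdc4* (54.4, 48.6 and 50.6) and *Cxcr7*. Receptors not among the highest were named after their values were seen. Of the 7, 3 were higher and 4 lower by GDF15, and 2 were higher and 5 lower by TGF-β, against 55.6% and 62.8% of all rows of this level that were lower.

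Among 36 other cytokine genes, 13 reached a mean FPKM of 1 and *Spp1* alone passed the criterion. *Spp1*, which encodes osteopontin, had the highest mean FPKM of this list, with 556, 322 and 224. It was down-regulated by TGF-β (-1.31), and its change by GDF15 was -0.78. *Mif*, the gene of macrophage migration inhibitory factor, had an FPKM of 240, 253 and 323, and was above *Spp1* in TGF-β. *Kitl*, the gene of stem cell factor, had 73.7, 86.4 and 75.1. The inflammatory cytokine genes *Il1b* and *Osm*, named after their values were seen, were at 0 in all 3 libraries.

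Of 27 NF-κB subunits, inhibitors and feedback genes, 21 reached a mean FPKM of 1. By GDF15, 16 were lower and 5 higher, with a median change of -0.12, and 0 passed the criterion. By TGF-β, 15 were lower and 6 higher, with a median of -0.16, and 1 passed, the complement gene *C3* (7.29, 4.50 and 2.91, a change of -1.08). Over all rows of this level 55.6% were lower by GDF15 and 62.8% by TGF-β. With the libraries scaled to a common sum of FPKM, 12 of the 21 and 38.6% of all rows of this level were lower by GDF15, and 13 of the 21 and 48.5% of all rows by TGF-β. The most abundant were *Nfkb2* (50.5, 41.3 and 41.2), *Rela* (38.9, 30.1 and 33.1) and the early response gene *Ier3* (28.1, 19.5 and 21.7). None of these 3 passed the criterion.

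Among 20 genes of gp130, STAT3 and C/EBP signalling, 18 reached a mean FPKM of 1. *Socs1*, a feedback inhibitor of cytokine signalling, was down-regulated by TGF-β, with an FPKM of 13.0, 7.80 and 5.13 and a change of -1.19. The kinase gene *Jak1* (55.0, 61.4 and 52.7), *Stat3* (41.5, 40.3 and 41.2) and *Il11ra1* (21.9, 23.3 and 26.8) were the most abundant by mean FPKM. The median change of the 18 was -0.04 (GDF15) and -0.08 (TGF-β), near the medians of all rows of this level.

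All 12 factors of AU-rich elements and mRNA decay reached a mean FPKM of 1, and 0 passed the criterion. The median change was -0.15 (GDF15) and -0.14 (TGF-β), with 8 of the 12 lower by GDF15 and 7 by TGF-β, against 55.6% and 62.8% of all rows of this level. With the trend of length and GC content subtracted, 11 of the 12 were lower by GDF15 and 10 by TGF-β, against 57.2% and 65.5% of all rows of this level. Other settings gave fewer lower genes. With the length trend alone subtracted, 8 were lower by each stimulus, against 53.8% and 63.0%. With a common sum of FPKM, 7 were lower by GDF15 and 6 by TGF-β, against 38.6% and 48.5%. The most abundant were *Zfp36l2* (50.1, 55.5 and 55.0), *Zfp36l1* (36.7, 32.1 and 27.1), both binding proteins of AU-rich elements, and *Khsrp* (30.2, 25.8 and 25.1). Of 20 genes of IL-1 and toll-like receptor signalling, 14 reached a mean FPKM of 1, 0 passed, and the median change was 0.06 (GDF15) and -0.09 (TGF-β). The receptor gene *Tlr4* (18.8, 23.2 and 21.4), the inhibitor gene *Tollip* (19.4, 22.8 and 20.4) and the kinase gene *Irak1* (22.2, 18.7 and 17.6) led that list.

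**Figure D5:**
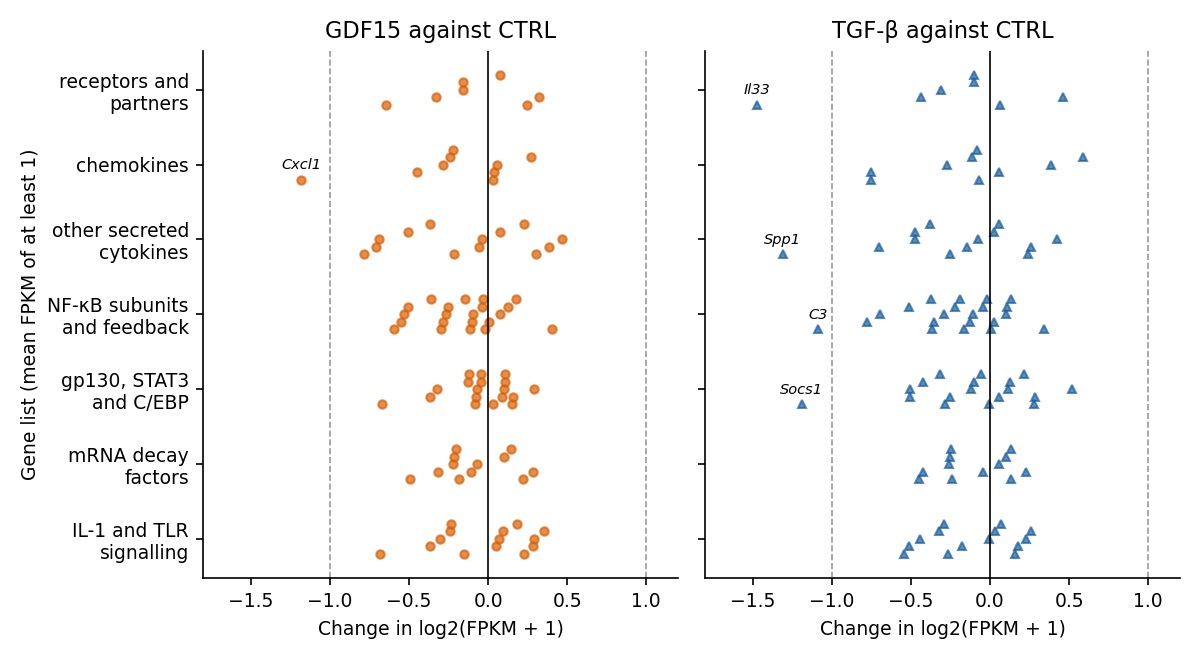
Change in log2(FPKM + 1) against CTRL (horizontal axis) by GDF15 (left) and TGF-β (right) of the genes of 7 lists with a mean FPKM of at least 1, 1 point per gene, with dashed lines at the 2-fold criterion and names for genes beyond it. *Cxcl1* is the 1 gene beyond the line by GDF15, and *Il33*, *Spp1*, *C3* and *Socs1* are beyond it by TGF-β, all lower.

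The rows most like *Cxcl1* and *Tslp* in their changes against CTRL were searched among rows with a mean FPKM of at least 1, by the Euclidean distance over both changes (3 libraries). The nearest to *Tslp* was *Klk8*, a secreted serine protease gene, at a distance of 0.0506, with an FPKM of 6.35, 2.29 and 2.10. *Sap25* (3.85, 1.23 and 1.29) and *Aldh3a1* (160.4, 69.3 and 55.7) followed at 0.150 and 0.295. The nearest to *Cxcl1* was *Bglap2*, an osteocalcin gene, at 0.178, with an FPKM of 8.33, 2.998 and 5.23. *Slpi* (46.9, 25.0 and 24.8) and *Ccdc28b* (11.6, 5.47 and 5.28) followed at 0.330 and 0.333. Within a distance of 0.25 there were 2 rows for *Tslp* and 1 for *Cxcl1*.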

How the data were processed

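Gene expression in NIH3T3 fibroblasts was measured in 3 stranded mRNA libraries, 1 for each treatment, made from pooled RNA. The authors calculated the deposited FPKM with Cufflinks from single-end reads and extracted protein coding genes reviewed in UniProt. The submitters' processing notes name TopHat 1.3.2, Bowtie 0.12.9, Cufflinks 2.0.2 and mm10. The gene annotation and the strand setting are not given in the sources used here.

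From the deposited FPKM, log2(FPKM + 1) was computed (pseudocount 1), and a change over 1 in size (2-fold) was called, with no filter on low values. With 1 library per treatment, no test was made. The calculation of the local spread was checked on simulated data with constant noise. This does not show that the spread measures an error between cultures. Coordinates and transcripts were from GENCODE M21 (GRCm38, the same assembly as mm10), with 15474 of 15554 rows matched, and promoters from RefSeq (GRCm38.p6). Depth was estimated from the steps of low FPKM, with 200 bases taken off each transcript length, over 1943 genes with 1 coding transcript.

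The genes, lists and rules were chosen with earlier results of these data known. Named genes were the 10 genes, list genes over 2-fold, the 3 most abundant of each list with a mean FPKM of at least 1, cluster neighbours at that level, and the 3 rows nearest to each gene over 2-fold. Alternatives were pseudocounts of 0.5 and 0.1, none, a minimum mean FPKM of 1, 2 scalings, a running median, and a length and GC trend. A length trend alone was added after seeing the data. Computations were run in Python 3.11.15 (matplotlib 3.10.9, pandas 2.3.3, numpy 2.4.6, scipy 1.17.1).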

Additional observations from a re-analysis of the deposited data

How the results depend on the processing

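No paired analysis was possible because there is 1 library per treatment, and no library could be left out. Under the alternatives, 233 of 261 values of the 10 genes differed from the reported value by less than the local spread and 28 by more, and 0 of the called values changed sign. The 233 include the values under the minimum mean FPKM of 1, a filter that leaves each kept value as it was. By GDF15, 2 genes, *Cxcl1* and *Tslp*, passed 2-fold under each of 8 alternatives, and 0 passed after subtraction of the length trend alone, chosen after seeing the data. Of these 8, a smaller pseudocount or none can only enlarge a change, and the minimum mean FPKM is a filter that both genes pass. Those settings could therefore not remove the calls. By TGF-β, 3 genes passed with a pseudocount of 0.1 and 3 without a pseudocount, *Cxcl1*, *Cxcl12* and *Tslp*. Between TGF-β and GDF15, 2 passed at 0.1 (*Cxcl12* and *Il6*, which has at most 2 estimated fragments) and 1 without a pseudocount (*Cxcl12*). Without a pseudocount the counts cover the 11081 of the 15554 rows above 0 in all 3 libraries, and with a trend subtracted the 15474 rows matched to a transcript, so that they are not on the base of the other counts. Of the listed rows (178 in all), 8 passed by GDF15 at 0.1, 7 without a pseudocount and 0 after the length trend alone. By TGF-β, 6, 16 and 9 passed at 0.5, at 0.1 and without a pseudocount. Between TGF-β and GDF15, 1, 8 and 7 passed at 0.5, at 0.1 and without a pseudocount. Over the rows used, 71, 315 and 589 passed by GDF15 under these 3 settings, 196, 489 and 789 by TGF-β, and 32, 227 and 525 between both.

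Small changes can take either sign under another scaling or correction. This held by GDF15 for *Cxcl12* (-0.07 to 0.11), *Csf1* (-0.08 to 0.08), *Il1rl1* (-0.22 to 0.06), *Ccl2* (-0.22 to 0.06), *Ccl7* (-0.25 to 0.04), *Cxcl5* (-0.39 to 0.04) and *Il6*, and by TGF-β for *Ccl2* (-0.11 to 0.02), *Ccl7* (-0.08 to 0.05) and *Csf1* (-0.02 to 0.10), and between TGF-β and GDF15 for *Ccl2* (-0.04 to 0.14) and *Tslp* (-0.12 to 0.04). List medians took the other sign by GDF15 for chemokines (0.04, length trend alone), other cytokines (0.03, common sum, and 0.02, length trend alone) and gp130 genes (0.06, common sum). By TGF-β this held for chemokines (0.0049, common sum, and 0.04, length trend alone) and gp130 genes (0.0077, common sum). Depth limits *Il6* and *Cxcl5*. With 1 library per treatment, a difference between cultures and an effect of the stimulus cannot be told apart.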

Other observations

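Of the 13 other cytokine genes that reached a mean FPKM of 1, 8 were lower by GDF15 and 8 by TGF-β, against 55.6% and 62.8% of all rows of this level. The genes named here were chosen after their values were seen. *Clcf1*, a ligand of the gp130 family, had an FPKM of 61.5 (CTRL), 37.7 (GDF15) and 43.9 (TGF-β), with changes of -0.69 and -0.48. *Tnfsf9*, the gene of the membrane-bound ligand of the costimulatory receptor 4-1BB, had 13.7, 7.99 and 8.02, with changes of -0.71 and -0.70. *Il34*, the gene of a further ligand of the CSF1 receptor, had 19.1, 13.1 and 14.4, with changes of -0.51 and -0.38. Other ligands of the gp130 family varied. *Il11* was at 4.29, 4.08 and 4.02, with changes of -0.06 and -0.08. *Ctf1* had 1.64, 2.45 and 2.16, and *Cntf* 0.747, 1.42 and 1.06, with positive changes by both stimuli (0.39 and 0.26, and 0.47 and 0.24).

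Among the NF-κB genes, *Nfkbia*, which encodes the inhibitor IκBα, was at 19.3 (CTRL), 15.5 (GDF15) and 11.6 (TGF-β), and *Ptges*, a prostaglandin synthase gene, had 25.1, 17.0 and 14.2. Their changes by TGF-β were -0.69 and -0.78. Other genes of that list went the other way. *Nfkbiz*, which encodes an atypical IκB protein, had an FPKM of 7.41, 8.17 and 9.65, with a change of 0.34 by TGF-β, which is 2.14 local spreads from the local median. The adhesion gene *Vcam1* had 9.59, 13.0 and 10.4, with a change of 0.40 by GDF15. Among the factors of mRNA decay, *Zfp36*, whose product destabilises mRNAs with AU-rich elements, had 14.3, 9.89 and 10.2, with changes of -0.49 and -0.45. *Ccl9* and *Ccl6* were the chemokine genes with the highest change by TGF-β among those with a mean FPKM of at least 1 (0.39 and 0.59), at an FPKM of 1.41, 1.48 and 2.16 and of 0.693, 1.04 and 1.54.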
